A study of Mus musculus with 16 samples.

Results

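The genes described here encode enzymes that clear odorants and other foreign molecules by oxidation, hydrolysis or conjugation. They were taken by gene symbol: every gene whose platform symbol starts with Ugt1a, Ugt2a, Ugt2b, Gsta, Gstm, Gstp, Gstt, Gsto or Sult, or is Fmo, Aldh or Ces followed by a digit, which gave 92 of the 19505 genes with a named probe. They were 21 aldehyde dehydrogenases (ALDH), 17 carboxylesterases (CES), 6 flavin-containing monooxygenases (FMO), 21 sulfotransferases (SULT), 8 UDP-glucuronosyltransferases of family 2 (UGT2) and 19 cytosolic glutathione transferases. The glutathione transferases were 3 of the alpha class (GSTA), 7 mu (GSTM), 3 pi (GSTP), 4 theta (GSTT) and 2 omega (GSTO). No Ugt1a gene, Ugt2a1 or Ugt2a2 had a probe with that symbol in the annotation used here, so these were not analysed here. Cytochrome P450 genes were not part of the set.

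The samples came from the olfactory mucosa of 24 S100a5-tauGFP mice of both sexes, 7 to 12 weeks old, all of which carried the reporter. Mice spent 40 h in single chambers with clean air at 3.1 L/min, and from 26 h on they received 10-s pulses every 20 min of either indole/ionone (odor) or filtered air (vehicle). The mucosa was dissociated and sorted for GFP, and each sample was the RNA of a pool of 3 mice on a Clariom S array. The 4 groups of 4 pools each were odor GFP+ cells, odor GFP- cells, vehicle GFP+ cells and vehicle GFP- cells, the 2 fractions of a pool coming from the same mice. The labels number 2 different vehicle pools as replicate 3, and the one listed later is called replicate 4 here. The labels name neither the doses nor the ionone isomer. A pool hides the spread between its mice, and GFP- cells are a mixture of every cell type that did not carry enough GFP.

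Odorants that dissolve in the mucus of the nose are removed by enzymes, which both detoxify them and end the stimulus. Oxidizing and hydrolysing enzymes, such as aldehyde dehydrogenases, flavin monooxygenases and carboxylesterases, expose or create polar groups. Conjugating enzymes then attach glutathione, sulfate or glucuronic acid, and transporters carry the product out of the cell. In the olfactory mucosa this work is best known from sustentacular cells, the supporting cells around the sensory neurons, and from Bowman's glands.

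Levels are log2 signals as deposited. On each array the median of 23 antigenomic probes, which match no mouse sequence, served as the background level, and it lay between 5.63 and 6.05. S100a5, whose promoter the reporter is named for, was higher in GFP+ cells, with a difference of 1.31 ± 0.17 (log2, SE) for the odor arm and 1.27 ± 0.17 for the vehicle arm. The mean level of 10 mature sensory neuron markers was 16.20 to 16.24 in odor GFP+, 16.01 to 16.09 in odor GFP-, 16.23 to 16.25 in vehicle GFP+ and 15.83 to 16.18 in vehicle GFP- samples. Mature neuron markers were thus bright in both fractions. Of 11 measured sustentacular markers, 7 were lower in GFP+ cells of odor pools and 8 of vehicle pools. Their mean level was 6.96 to 7.21 in odor GFP+ and 8.55 to 8.76 in odor GFP- samples, and 7.00 to 7.40 in vehicle GFP+ and 8.51 to 9.50 in vehicle GFP- samples. Cyp2g1, the best known of them, averaged 14.26 in odor GFP+ and 15.59 in odor GFP- cells. The vehicle GFP- sample of replicate 1 stood apart with the value of 9.50, the other GFP- samples reaching at most 8.76. All 11 measured neutrophil markers were lower in GFP+ cells of both arms, with mean levels of 5.30 to 6.36 in odor GFP+ and 12.78 to 14.20 in odor GFP- samples, as were all 8 lymphocyte and all 8 microvillar cell markers.

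Most of the 92 enzyme genes did not exceed the background level on any array. On all 16 arrays 18 of them (19.6%) were above it, against 9681 (49.6%) of all genes, and 56 (60.9%) were below it on every array, against 6852 (35.1%) of all genes. The other 18 were above background on some arrays. The always-detected genes were 9 aldehyde dehydrogenases (Aldh2, Aldh3a2, Aldh3b1, Aldh4a1, Aldh5a1, Aldh6a1, Aldh7a1, Aldh16a1 and Aldh18a1), the monooxygenases Fmo1 and Fmo2, the mu glutathione transferases Gstm1, Gstm2, Gstm4 and Gstm5, and the sulfotransferases Sult1c1, Sult1d1 and Sult4a1. All 8 UGT2 and all 4 theta glutathione transferases were below background on every array, as were 14 of 17 carboxylesterases and 16 of 21 sulfotransferases. Among 18 measured enzymes listed as known from the olfactory mucosa, Aldh1a2, Aldh1a3, Aldh3a1, Sult1a1 and Ces1f were among those below background throughout.

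The first question was which enzymes differ between the GFP+ and GFP- cells of the same pool. In odor pools 3 of the 92 genes were higher in GFP+ cells and 14 were lower (3.26% and 15.2%), where 7.96% and 10.6% of all genes were called higher and lower (limma on within-pool differences, Benjamini-Hochberg adjusted p under 0.05 over all genes). In vehicle pools 0 were higher and 17 were lower (18.5%), against 8.86% and 10.8% of all genes. In either direction 18.5% of the enzymes were called in each arm, against 18.6% of all genes in odor pools and 19.7% in vehicle pools, so the share called was near the background of all genes. The median difference of the enzymes was -0.03 in odor and 0.03 in vehicle pools, against 0.11 in both arms for all genes. Lower in both arms were 14 genes, and none was called in opposite directions. The share of all genes lower in both arms was not counted, and both arms shared a variance estimate per gene. An unadjusted p under 0.05 was found for 27 enzymes in odor pools and 28 in vehicle pools, where 31.6% and 31.4% of all genes had one. The split depended on scaling. With each array centred on the median of all genes, 34 enzymes were called higher and 12 lower in odor pools and 37 and 14 in vehicle pools. Of all 19505 genes, 10682 were then higher and 1664 lower in odor pools, and 10604 and 1661 in vehicle pools. Quantile normalization gave 5 and 14 enzymes in odor and 6 and 16 in vehicle pools. The counts of all genes were then 2514 and 1941 in odor and 2751 and 1965 in vehicle pools. Of all called genes, 42.9% were higher in GFP+ cells in odor pools as deposited, 86.5% after centring and 56.4% after quantile normalization. In bulk samples of this kind, fewer cells of a type and less RNA per cell cannot be told apart. The sustentacular and neutrophil markers moved the same way as the enzymes called lower. So did the mean levels of immature neuron, dividing basal cell, macrophage and erythroid markers in both arms. Of 10 measured Bowman's gland markers, only Sox9 and Aqp5 were called lower in odor pools (-4.29 and -0.90). Respiratory ciliated markers went the other way, with means of 8.48 to 8.85 in odor GFP+ and 7.80 to 8.47 in odor GFP- samples. The part of these cell types in the result was not tested.

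**Figure D1:**
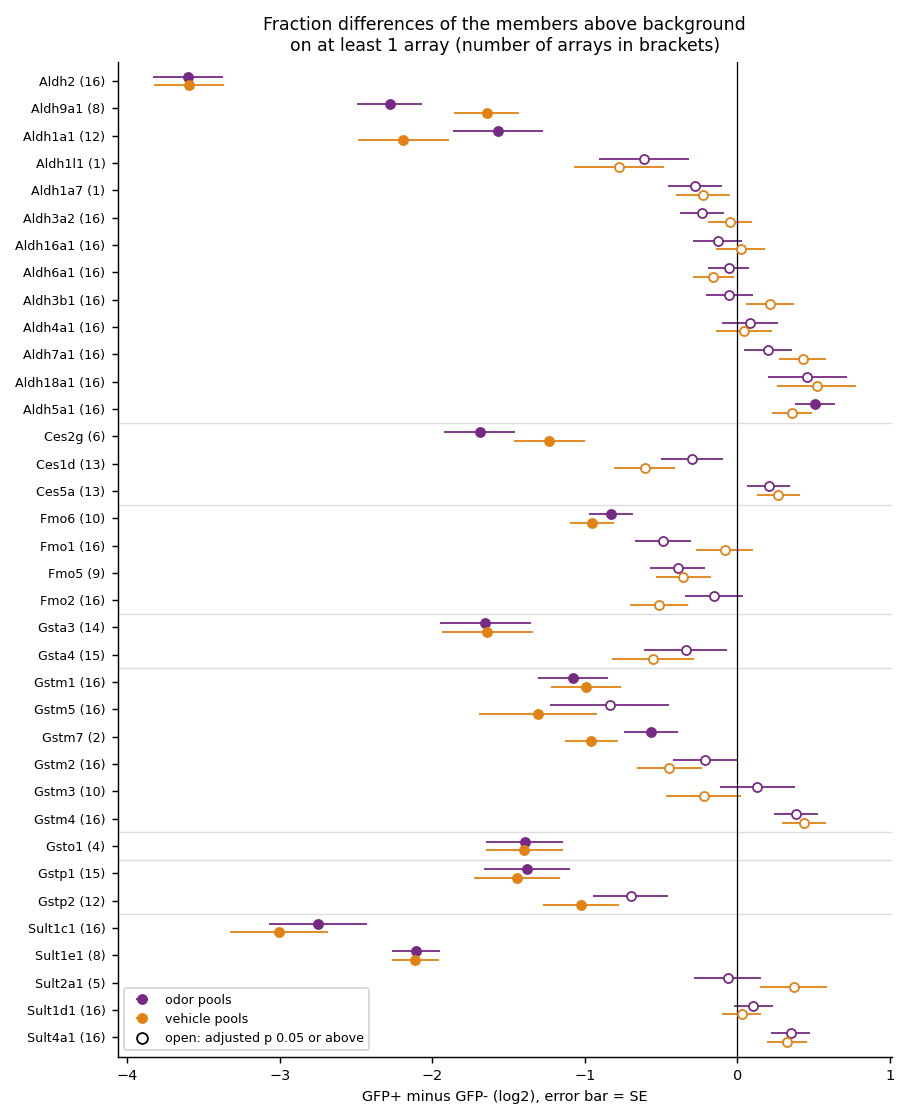
GFP+ minus GFP- difference (log2, horizontal axis) of the 36 enzyme genes that were above background on at least 1 array, by family, for odor pools (purple) and vehicle pools (orange). Points are fitted differences with SE, filled where the adjusted p was under 0.05, and a gene below background in a fraction has there only a bound. In odor pools the filled points run from Aldh2 at -3.60 to Gstm7 at -0.57, with Aldh5a1 alone to the right of 0.

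Aldehyde dehydrogenases turn aldehydes, many of them odorous or toxic, into acids. Aldh2, the mitochondrial enzyme best known for clearing acetaldehyde, differed most of all 92 genes. It had 10.42, 10.08, 10.30 and 10.23 in odor GFP+ samples, against 14.20, 13.65, 13.30 and 14.29 in odor GFP- samples. Vehicle pools gave 10.69, 9.98, 10.78 and 10.41 in GFP+ and 14.83, 14.02, 13.62 and 13.78 in GFP- samples. Every GFP+ sample was far below every GFP- sample, yet well above background. GFP+ cells were 12.2-fold lower in odor pools (-3.60 ± 0.23 log2, SE, adjusted p = 4.6e-07) and 12.1-fold lower in vehicle pools (-3.60 ± 0.23, adjusted p = 4.7e-07).

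Aldh1a1, a cytosolic enzyme that makes retinoic acid from retinaldehyde, was above background on 2 of 4 GFP+ arrays in each arm and on all GFP- arrays. Its levels were 6.22, 5.69, 6.01 and 5.89 in odor GFP+ and 8.58, 6.48, 7.83 and 7.19 in odor GFP- samples. The GFP+ samples lay close together while the GFP- samples spread over more than 2 log2 units, and the fractions did not overlap. The difference was -1.57 ± 0.30 in odor pools (adjusted p = 0.0027) and -2.19 ± 0.30 in vehicle pools (adjusted p = 0.00022), sizes that the arrays below background leave uncertain. Aldh9a1, which acts in carnitine synthesis, was above background on all GFP- arrays and on no GFP+ array. Its mean level was 4.63 in odor GFP+ and 6.91 in odor GFP- cells, and 5.39 in vehicle GFP+ and 7.03 in vehicle GFP- cells. That placed it at least 2.02-fold lower in GFP+ cells of odor pools and at least 2.29-fold lower in vehicle pools. These bounds were set against the lowest signal that counts as above background, come from means and carry no error. The test on the levels as deposited gave adjusted p = 1.2e-05 in odor and 0.00016 in vehicle pools (limma).

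None of the other aldehyde dehydrogenases was called lower in either arm. Aldh5a1, the succinic semialdehyde dehydrogenase of GABA breakdown, was higher in GFP+ cells of odor pools. Levels were 8.27, 8.59, 8.32 and 8.73 in odor GFP+ and 7.73, 7.97, 8.02 and 8.16 in odor GFP- samples, without overlap. The difference was 0.51 ± 0.13 (adjusted p = 0.019), and in vehicle pools 0.36 ± 0.13 (adjusted p = 0.082). It was higher in the GFP+ fraction of all 8 pools, but the call in odor pools was lost without replicate 1, 2 or 4 of that arm. Aldh3a2, the fatty aldehyde dehydrogenase, had mean levels of 12.78 ± 0.07 (SD, n = 4) in odor GFP+ and 13.01 ± 0.30 in odor GFP- cells, and 12.83 ± 0.20 and 12.88 ± 0.11 in vehicle GFP+ and GFP- cells. Its fractions overlapped in both arms, and differences of -0.23 and -0.05 did not pass the test. Aldh3b1, which acts on medium and long-chain aldehydes, differed by -0.05 and 0.22, and Aldh18a1, which serves proline synthesis rather than clearance, by 0.46 and 0.52, neither past the threshold. Of the 21 aldehyde dehydrogenases 1 was called higher and 3 lower in odor pools, and 0 and 3 in vehicle pools. The 14.3% called lower in each arm lay near the 10.6% and 10.8% of all genes.

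Flavin-containing monooxygenases oxidize soft nucleophiles such as amines and sulfides. Fmo2 was above background on all arrays, with means of 7.85 ± 0.15 in odor GFP+ and 7.997 ± 0.29 in odor GFP- cells, and 7.94 ± 0.14 in vehicle GFP+ and 8.45 ± 0.34 in vehicle GFP- cells (SD, n = 4 each). Neither difference passed the test (-0.15 and -0.51, adjusted p = 0.63 and 0.087). Fmo1 differed by -0.49 in odor pools (adjusted p = 0.094) and by -0.08 in vehicle pools (adjusted p = 0.80). Fmo6 was the only one of 6 that was called, lower in GFP+ cells of odor and vehicle pools (adjusted p = 0.0016 and 0.00055). It was above background on all GFP- arrays but on only 1 of 4 GFP+ arrays in each arm, so the size of its difference is not given. Its levels were 5.86, 5.52, 5.70 and 5.39 in odor GFP+ and 6.81, 6.18, 6.19 and 6.59 in odor GFP- samples.

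Carboxylesterases split esters, a large class of odorants. Ces2g was lower in GFP+ cells of both arms and was above background on 3 of 4 GFP- arrays of each arm and on no GFP+ array. Its mean was 4.52 in odor GFP+ and 6.21 in odor GFP- cells, and 4.94 in vehicle GFP+ and 6.18 in vehicle GFP- cells. The test on the levels as deposited gave adjusted p = 0.00026 in odor and 0.0027 in vehicle pools (limma). The bound from the means, without an error, was 1.25-fold lower in odor and 1.27-fold lower in vehicle pools. In log2 these bounds were 0.32 and 0.34, less than the SD of the GFP- samples (0.46 and 0.40, n = 4 each). Ces1d, also a triacylglycerol hydrolase, had -0.30 and -0.61 without passing the test (adjusted p = 0.34 and 0.057). Ces1b passed the test as higher in GFP+ cells of odor pools (adjusted p = 0.031) with means of 4.25 in GFP+ and 3.64 in GFP- cells, both below background, and leaving out any single odor pool ended that call. Probes of the Ces1 and Ces2 genes, which lie in tandem runs on chromosome 8, may share signal because the genes are near copies.

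Glutathione transferases join glutathione to electrophiles. Among the mu class, which forms a run on chromosome 3 in the order Gstm5, Gstm7, Gstm6, Gstm3, Gstm2, Gstm1 and Gstm4, the 2 ends and the neighbour of Gstm4 had fraction differences of unlike sign (given next), and the 300 bases around the annotated starts of those 3 genes are shown for that reason. The windows run from 250 bases before to 50 bases after the start and are from RefSeq (GRCm38.p6), which held such a window for 75 of the 92 genes. They are chr3:107895604-107895903 on the plus strand for Gstm5, chr3:108017924-108018223 on the minus strand for Gstm1 and chr3:108044810-108045109 on the minus strand for Gstm4. Capitals mark TGACNNNGC, the core of the antioxidant response element, and GCGTG, the core of the aryl hydrocarbon receptor site, each searched on both strands.
Gstm5: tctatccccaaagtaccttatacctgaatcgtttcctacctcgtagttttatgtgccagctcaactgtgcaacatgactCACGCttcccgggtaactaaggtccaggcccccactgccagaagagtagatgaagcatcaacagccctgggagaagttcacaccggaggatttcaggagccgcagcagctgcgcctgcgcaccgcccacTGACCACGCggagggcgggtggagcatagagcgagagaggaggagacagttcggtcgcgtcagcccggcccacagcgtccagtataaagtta
Gstm1: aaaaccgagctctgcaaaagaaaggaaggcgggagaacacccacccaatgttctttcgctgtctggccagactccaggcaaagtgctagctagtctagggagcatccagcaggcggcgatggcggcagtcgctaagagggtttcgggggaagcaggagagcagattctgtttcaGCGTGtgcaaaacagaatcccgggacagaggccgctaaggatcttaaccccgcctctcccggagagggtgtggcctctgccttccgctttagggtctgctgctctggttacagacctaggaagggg
Gstm4: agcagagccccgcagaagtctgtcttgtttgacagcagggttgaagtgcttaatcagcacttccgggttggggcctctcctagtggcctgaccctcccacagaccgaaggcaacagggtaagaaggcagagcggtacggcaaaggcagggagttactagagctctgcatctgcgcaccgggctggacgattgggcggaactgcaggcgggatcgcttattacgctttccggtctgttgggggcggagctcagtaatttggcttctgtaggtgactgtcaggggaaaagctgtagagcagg
The Gstm5 window held 1 TGACNNNGC and 2 GCGTG, of which 1 overlapped the TGACNNNGC, the Gstm1 window held 1 GCGTG, and the Gstm4 window held neither. TGACNNNGC stood in 12.5% of the windows of 27025 genes and in 4 of the 75 enzyme windows (5.33%), and GCGTG in 32.5% and in 15 of 75 (20.0%).

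Gstm1 was above background in every sample. It had 12.66, 12.70, 12.35 and 12.08 in odor GFP+, against 13.59, 13.44, 13.58 and 13.48 in odor GFP- samples, with no overlap. Vehicle pools gave 12.96, 11.81, 13.63 and 12.84 in GFP+ and 14.79, 13.04, 13.79 and 13.59 in GFP- samples, and here the fractions overlapped although GFP+ was below GFP- within all 4 pools. The differences were -1.08 ± 0.23 in odor pools (adjusted p = 0.0065) and -0.99 ± 0.23 in vehicle pools (adjusted p = 0.010). The vehicle call was lost without vehicle replicate 1 (-0.71, adjusted p = 0.053) or replicate 2 (-0.91, adjusted p = 0.055), and when the pool was not used as a block (adjusted p = 0.052).

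Gstm5 had 7.57, 7.47, 7.56 and 7.47 in odor GFP+ and 8.97, 8.21, 7.68 and 8.57 in odor GFP- samples, a difference of -0.84 ± 0.39 that did not pass the test (adjusted p = 0.17). In vehicle pools it had 6.98, 7.995, 8.01 and 7.23 in GFP+ and 10.22, 8.72, 8.34 and 8.16 in GFP- samples. The vehicle difference of -1.31 ± 0.39 passed (adjusted p = 0.036), but without replicate 1 it was -0.66 (adjusted p = 0.096). The call was also lost without vehicle replicate 2 (-1.50, adjusted p = 0.054) or replicate 4 (-1.43, adjusted p = 0.067). Gstm4 pointed the other way, with means of 9.01 ± 0.23 in odor GFP+ and 8.62 ± 0.33 in odor GFP- cells, and 9.005 ± 0.05 in vehicle GFP+ and 8.56 ± 0.31 in vehicle GFP- cells (SD, n = 4 each). It was higher in the GFP+ fraction of all 8 pools, by 0.39 and 0.44, and missed the threshold in both arms (adjusted p = 0.087 and 0.053). The vehicle difference passed it under 6 of 14 alternatives, among them quantile normalization (adjusted p = 0.025), and the odor difference under 1, median centring. Gstm2 differed by -0.21 and -0.44 without passing the test. Near-identical mu genes may share probe signal, and the probe sequences were not used here.

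In the pi class, Gstp1 conjugates many small electrophiles. It had 6.17, 5.69, 6.13 and 6.47 in odor GFP+ and 7.58, 7.88, 6.83 and 7.70 in odor GFP- samples, so that the fractions stayed apart. It was 2.60-fold lower in GFP+ cells of odor pools (-1.38 ± 0.28, adjusted p = 0.0048) and 2.73-fold lower in vehicle pools (-1.45 ± 0.28, adjusted p = 0.0034). Gstp1 was above background on 3 of 4 odor GFP+ arrays and on all others. Gstp2, a near copy of Gstp1, was above background on 2 of 4 GFP+ arrays of each arm and on all GFP- arrays. Its means were 5.90 in odor GFP+ and 6.60 in odor GFP- cells (adjusted p = 0.075), and 5.85 in vehicle GFP+ and 6.88 in vehicle GFP- cells (adjusted p = 0.013), so that it passed the threshold in the vehicle arm.

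Of the alpha class, Gsta3 was 3.14-fold lower in GFP+ cells of odor pools (-1.65 ± 0.30, adjusted p = 0.0021) and 3.11-fold lower in vehicle pools (-1.64 ± 0.30, adjusted p = 0.0022). Its levels were 6.70, 6.11, 6.10 and 5.81 in odor GFP+ and 7.81, 7.87, 7.73 and 7.91 in odor GFP- samples. The GFP- values were nearly equal and lay more than 1 log2 unit above each GFP+ value, and 1 of the 4 GFP+ arrays of each arm was below background. Gsta4, which clears hydroxynonenal from oxidized lipids, gave -0.34 and -0.55 without passing the test (adjusted p = 0.42 and 0.19). Gsto1, an omega enzyme that reduces dehydroascorbate, was above background on no GFP+ array and on 2 of 4 GFP- arrays of each arm. Its means were 4.49 in odor GFP+ and 5.89 in odor GFP- cells (adjusted p = 0.0021). In vehicle pools they were 4.56 in GFP+ and 5.96 in GFP- cells (adjusted p = 0.0020). The vehicle bound from the means, without an error, was 1.09-fold lower. In odor pools the GFP- mean did not exceed the mean background of the GFP+ arrays, so no bound is given.

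Gstm7, Gstt2 and Gstt3 were called at levels that were mostly below background. Gstm7 was above it on 2 vehicle GFP- arrays only and had means of 4.81 in odor GFP+ and 5.38 in odor GFP- cells (adjusted p = 0.046). Its odor call was lost under most alternatives, including without odor replicate 1, 2 or 4 and without any one vehicle pool. Gstt2 was below background throughout, with means of 3.31 in odor GFP+ and 4.49 in odor GFP- cells (adjusted p = 0.00070).

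Sulfotransferases add a sulfate group to phenols, amines and steroids. Sult1d1, an amine and phenol sulfotransferase, lay near the top of the arrays' range in every sample. It had 17.86, 18.07, 18.34 and 17.85 in odor GFP+ and 17.80, 17.97, 18.12 and 17.81 in odor GFP- samples. Vehicle samples had 17.87, 17.92, 18.22 and 17.81 in GFP+ and 18.01, 17.67, 18.09 and 17.94 in GFP- cells. The fractions overlapped fully, with differences of 0.10 (95% interval -0.17 to 0.38) in odor and 0.03 (-0.25 to 0.31) in vehicle pools. The array values ranged up to 19.35, so a compression of differences at this brightness was not tested.

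Sult4a1, a brain-enriched relative whose substrate is not settled, was also bright in all samples. Its levels were 14.08, 13.91, 13.99 and 14.11 in odor GFP+ and 13.58, 13.81, 13.43 and 13.88 in odor GFP- samples, and 14.17, 14.07, 14.26 and 14.10 in vehicle GFP+ and 13.85, 13.73, 13.88 and 13.84 in vehicle GFP- samples. It was the only one of the 92 genes whose GFP+ samples all lay above all GFP- samples over the 8 pools, while 11 of the 92 lay wholly below. Of all genes 3.52% lay wholly above and 7.76% wholly below. The differences of 0.35 and 0.33 did not pass the test (adjusted p = 0.083 and 0.10).

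Sult1c1, a phenol sulfotransferase, showed the widest fraction difference of its family. It had 9.10, 8.57, 8.99 and 8.98 in odor GFP+, against 12.03, 11.36, 11.55 and 11.70 in odor GFP- samples. In vehicle pools it had 8.97, 8.69, 9.37 and 9.02 in GFP+ and 13.58, 11.70, 11.50 and 11.30 in GFP- samples. The GFP+ values were tight, and the single high GFP- value came from vehicle replicate 1. GFP+ cells were 6.73-fold lower in odor pools (-2.75 ± 0.32, adjusted p = 6.9e-05) and 8.03-fold lower in vehicle pools (-3.01 ± 0.32, adjusted p = 3.4e-05).

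Sult1e1, the estrogen sulfotransferase, was above background on all 8 GFP- arrays and on none of the GFP+ arrays. Odor GFP+ samples had 4.68, 4.13, 4.19 and 4.66, and odor GFP- samples 6.54, 6.32, 6.58 and 6.64. By the means, without an error, it was at least 1.54-fold lower in GFP+ cells of odor pools and at least 2.14-fold lower in vehicle pools. The test on the levels as deposited gave adjusted p = 1.6e-06 in each arm (limma). Sult2b1, a cholesterol sulfotransferase, was called lower in both arms at levels below background, with means of 3.49 in odor GFP+ and 4.06 in odor GFP- cells (adjusted p = 0.029), and the odor call was lost without any one odor pool. Of the 21 sulfotransferases 3 (14.3%) were called lower in each arm and none higher, a share near that of all genes.

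**Figure D2:**
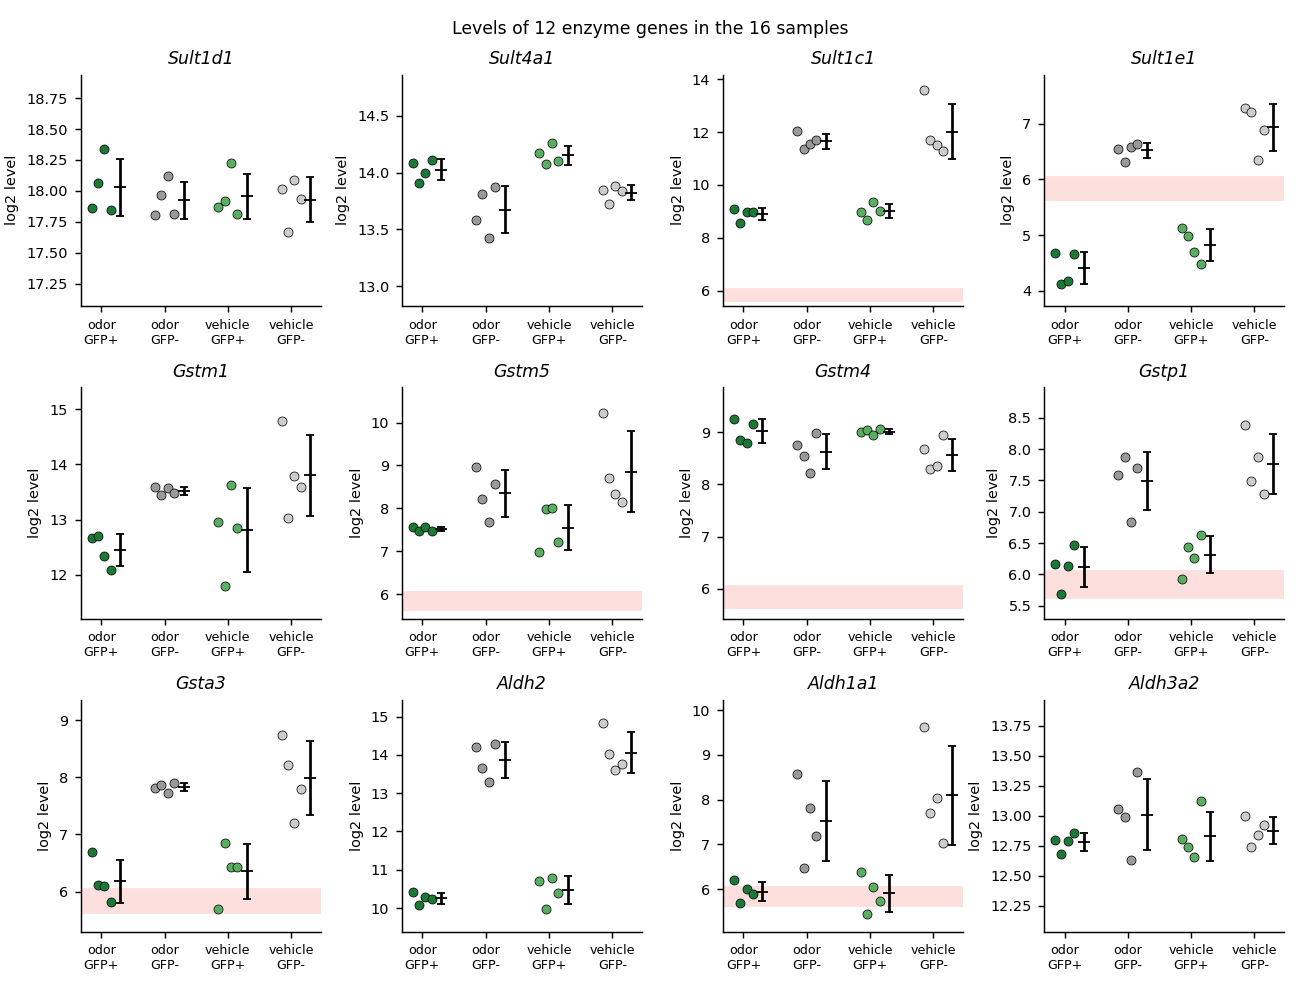
Log2 level (vertical axis, a separate range for each gene) of 12 enzyme genes in odor GFP+, odor GFP-, vehicle GFP+ and vehicle GFP- samples. Points are samples, crosses with bars the mean and SD of 4 samples, and the pink band the range of the background level over the 16 arrays. Sult1d1 sits near 18 in all groups, while Sult1c1, Aldh2 and Sult1e1 are lower in all GFP+ samples than in any GFP- sample.

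UDP-glucuronosyltransferases attach glucuronic acid and are held to be central to odorant clearance through Ugt2a1, which was not analysed here. The 8 UGT2 genes measured had median differences of 0.16 in odor and 0.28 in vehicle pools, all below background. Ugt2b36 passed the test as higher in GFP+ cells of odor pools (adjusted p = 0.023), its mean levels being 5.27 in GFP+ and 4.50 in GFP- samples, and that call was lost without odor replicate 1, 2 or 3. In the vehicle arm its adjusted p was 0.099.

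Genes that feed or follow these enzymes were counted from fixed lists, to be read against the 18.6% of all genes called in odor pools and 19.7% in vehicle pools. The lists are short, and no list was tested as a whole. Arrays above background were not counted for list genes, so the sizes given for dim ones are uncertain. Of 3 membrane-bound glutathione transferases, 2 were lower in GFP+ cells of both arms: Mgst1, a microsomal transferase and peroxidase, with log2 differences of -3.44 and -3.74, and Mgst2 with -1.20 and -1.02 (odor and vehicle pools). Of 8 glutathione supply genes, 3 were lower in odor and 2 in vehicle pools, among them Gsr, glutathione reductase, with -1.14 and -1.37, and Slc7a11, the cystine importer, with -1.38 and -1.56. Gclc, of the rate-limiting step of glutathione synthesis, was lower in odor pools (-0.43, adjusted p = 0.049). None of 6 sulfate donor genes was called in either arm. Of 4 genes listed for UDP-glucuronic acid supply only Slc35b1, a nucleotide carrier, was called, higher in vehicle pools by 0.45.

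Of 20 other oxidizing or reducing enzymes, Xdh, xanthine dehydrogenase, was lower in GFP+ cells of both arms (-3.44 in odor and -2.87 in vehicle pools, log2), and so was Adh1, an alcohol dehydrogenase (-0.87 in each). Cbr1, a carbonyl reductase, was higher in GFP+ cells of odor pools by 0.68, and Ephx1, the microsomal epoxide hydrolase, in vehicle pools by 0.71. Among 6 other conjugating enzymes, Hnmt, which methylates histamine, was lower in both arms (-1.12 and -0.70), and Glyat, which attaches glycine, was higher in odor pools by 0.79. The efflux pump Abcg2 was lower in both arms (-1.65 and -1.85), and Abcc3 and Abcb1b were lower in vehicle pools (-0.93 and -0.43), out of 8 transporters. Of 12 regulators, Rxra and Maff were higher in odor pools by 0.57 and 0.50, and Nfe2l2, the antioxidant regulator Nrf2, and Nr1i3, a xenobiotic receptor, in vehicle pools by 0.57 and 0.73.

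The GFP- sample of vehicle replicate 1, with the high sustentacular marker level, was also the highest of the 8 GFP- samples for 16 of the 27 enzymes that were above background on all GFP- arrays, where it was the highest for 15.3% of all such genes. Of the 9 among these that were lower in GFP+ cells of both arms, 8 were highest there, but the matching share of all genes was not counted. A high value in that sample also widens the vehicle difference by which the 9 were picked. Aldh1a1 had 9.62 in that sample, against 6.48 to 8.58 in the other GFP- samples. The sustentacular mean was compared over the 8 GFP- samples, odor and vehicle together, with 10 enzymes. These were the enzymes lower in GFP+ cells of both arms and above background on at least 6 of 8 GFP- arrays. They were thus picked from these same data, so the p-values are descriptive only. Sult1c1 followed the sustentacular mean most closely of the 10 (Pearson's r = 0.97, exact permutation p = 0.0077, adjusted 0.039, and Spearman's rho = 0.90, exact p = 0.0046, adjusted 0.046). Without the 2 samples farthest from the median, vehicle replicate 1 and odor replicate 1, r was 0.41, so the relation rested on those samples. Aldh1a1 had r = 0.84 (exact p = 0.0077, adjusted 0.039) and rho = 0.71 (exact p = 0.058, adjusted 0.19), and r was 0.41 without those samples. Of the other 8, 7 had r between 0.51 and 0.86, with adjusted exact p of 0.066 to 0.26. Aldh9a1 had r = -0.04 (exact p = 0.92, adjusted 0.92) and rho = 0.07 (exact p = 0.88, adjusted 0.88), and without those samples r was -0.20. The call counts of vehicle pools without replicate 1 were 1 higher and 14 lower, against 1010 and 1778 of all 19505 genes.

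**Figure D3:**
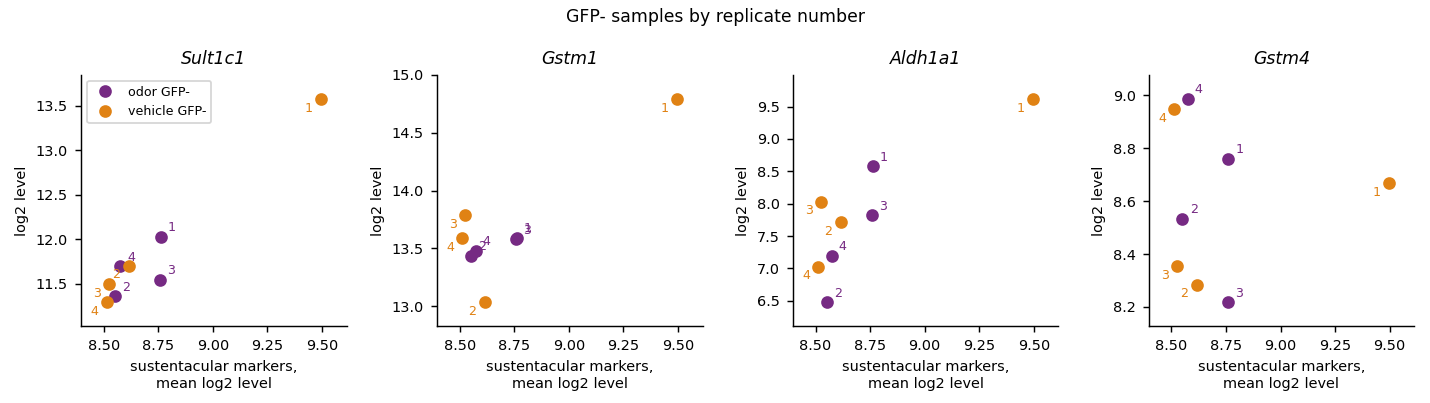
Log2 level of Sult1c1, Gstm1, Aldh1a1 and Gstm4 (vertical axes) against the mean log2 level of 11 sustentacular markers (horizontal axes) in the 4 odor GFP- samples (purple) and the 4 vehicle GFP- samples (orange), numbered by replicate. Vehicle replicate 1 lies alone at 9.50 and holds the highest value of Sult1c1, Gstm1 and Aldh1a1 but not of Gstm4.

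The second question was whether odor exposure changed these enzymes. None of the 92 genes passed the test in GFP+ cells or in GFP- cells, where 0% and 0.00513% of all genes did (limma, 0 and 1 of 19505 genes). By unadjusted p under 0.05 there were 6 of the 92 in GFP+ cells and 2 in GFP- cells, against 5.49% and 3.57% of all genes. The median difference of the enzymes, odor minus vehicle, was -0.05 in GFP+ and -0.06 in GFP- cells, against 0.00 and -0.01 for all genes.

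Among the 18 always-detected enzymes the differences ran from -0.37 to 0.13 in GFP+ cells. The 95% interval stayed within 1 log2 unit of 0 for 17 of them, the exception being Gstm1 (-0.36, interval -1.07 to 0.35). In GFP- cells they ran from -0.50 to 0.42, with 15 intervals within 1 unit and wider ones for Fmo1, Gstm5 and Sult1c1. For Sult1c1 the interval was -0.49 to 0.28 in GFP+ and -1.30 to 0.58 in GFP- cells, and for Sult1d1 -0.27 to 0.42 and -0.35 to 0.34.

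Aldh9a1 had the smallest p in GFP+ cells. Its levels were 4.17, 5.07, 4.67 and 4.60 in odor GFP+ and 5.31, 5.90, 5.17 and 5.18 in vehicle GFP+ samples. The arms did not overlap, but every value was below background, and the adjusted p was 0.89 (unadjusted p = 0.0052, limma). The next genes were the sulfotransferases Sult2a6 and Sult3a2, Aldh3b3 and Ces2g, all below background on every GFP+ array (adjusted p = 0.89 each). In GFP- cells the smallest p belonged to Sult2a4, Gstt2, Ces1b, Fmo2 and Aldh1a2 (adjusted p = 1.00 each). Of these only Fmo2 was above background, at 7.94, 8.36, 7.66 and 8.02 in odor GFP- and 8.80, 8.52, 8.49 and 7.99 in vehicle GFP- samples, and its arms overlapped.

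By family, the mu glutathione transferases of GFP- cells had a median difference of -0.27, with 6 of 7 below 0, and the pi class -0.26. Single pools moved these medians. Without vehicle replicate 1 they were -0.05 (4 of 7 below 0) and -0.06, and without odor replicate 3 they were -0.17 and -0.04. The alpha class median of -0.16 was 0.09 without vehicle replicate 1, -0.09 without replicate 2 and -0.41 without replicate 3 of that arm. Gstm5, for instance, had 8.97, 8.21, 7.68 and 8.57 in odor GFP- samples, of which 7.68 alone lay outside the span of the vehicle GFP- samples, 8.16 to 10.22. In GFP+ cells the family medians lay between -0.18 and 0.05. No gene of the supply, efflux or regulator lists was called for odor in either fraction.

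**Figure D4:**
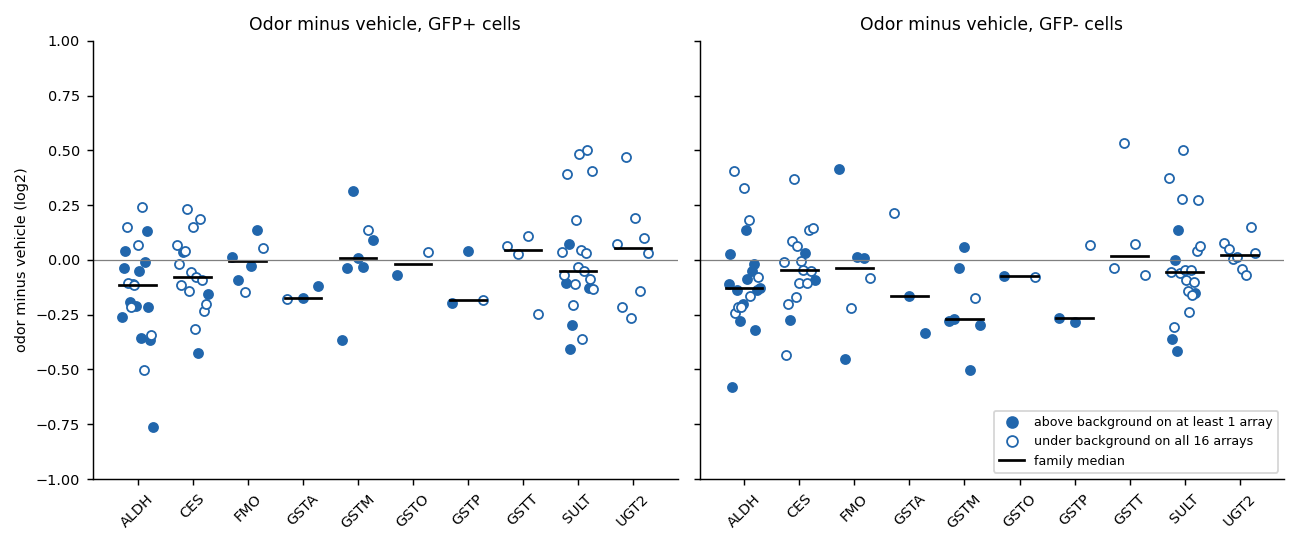
Odor minus vehicle difference (log2, vertical axis) of the 92 enzyme genes by family in GFP+ cells (left) and GFP- cells (right). Filled points are genes above background on at least 1 array, open points genes below it on all 16, and bars family medians. Points lie within -0.76 and 0.50 in GFP+ and within -0.58 and 0.53 in GFP- cells.

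The third question was whether the GFP+ over GFP- difference itself shifted with odor. No enzyme was called (0% of all genes, limma), and 1 of the 92 had an unadjusted p under 0.05, against 3.35% of all genes. That gene was Sult1c2 (0.70 ± 0.30, adjusted p = 1.00), which was below background on all arrays. Aldh9a1 followed with levels at or below background in GFP+ cells (adjusted p = 1.00). For Aldh2 the fraction difference of -3.60 in odor pools and of -3.60 in vehicle pools gave a shift of -0.0068 ± 0.32, and for Sult1c1 -2.75 and -3.01 gave 0.26 ± 0.45. Calls made in 1 arm alone, which were 3 in odor pools (Aldh5a1, Ces1b and Ugt2b36) and 3 in vehicle pools (Gstm5, Gstp2 and Gstt3), are thus not shown to differ between arms.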

How the data were processed

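RNA of GFP+ and GFP- cells from 8 pools of 3 mice was hybridised to 16 Clariom S arrays. The authors deposited 1 normalized value per probe set, made with Affymetrix Expression Console per the submitters' processing notes. Neither a version nor settings nor a build was found in the labels. The deposited values ran from 1.67 to 19.35 and were taken as log2 intensities, the scale that program writes; no label states the base. Of 28846 probe sets 19572 carried 1 gene symbol and 9274 none, and the brightest probe set was kept for the 55 genes with several, none of them an enzyme of the set. Gene names come from GEO's platform annotation.

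Values were used as deposited. The within-pool GFP+ minus GFP- differences of all 19505 genes were fitted with limma 3.58.1 in R 4.3.3 (lmFit, eBayes), with 1 coefficient per arm and their contrast. Odor and vehicle were also compared within each fraction (8 arrays each). Tests were two-sided, with Benjamini-Hochberg adjustment over all genes and a threshold of 0.05. The 2 fractions of a pool come from the same mice, and their deviations from the group means correlated by 0.109 to 0.249. Array pairs of a group correlated by 0.974 to 0.987, and none was identical. A gene counted as above background on an array where it exceeded the median of the 23 antigenomic probes. Bounds on a fold use, for each dim array, the higher of that level and the gene's own. They come from means and carry no error, and the adjusted p values belong to the levels as deposited. No depth applies to arrays, and the number of pools limits the precision. Correlations over samples used exact permutation tests (scipy 1.17.1).

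Genes were named by rule: the up to 3 of largest difference in each direction in each family, the 5 of smallest p for odor, the brightest of each family, a list of enzymes of the olfactory mucosa, and called genes of the supply lists. Sult4a1, Gstm4, Aldh3b1, Aldh18a1 and the promoter windows were chosen after their values were seen. The set and all lists were chosen with earlier results of these data known. Alternatives were median centring, quantile normalization, a filter on dim genes, the mean of probe sets, a variance trend, fits with or without the pool or replicate number as a block, and leaving out each pool. The fits were tested on simulated data with 200 changed genes. At a size of 1 log2 unit, the fit of odor pools called 57.5% of these genes. At that size the odor comparison called 42% in GFP+ and 47% in GFP- cells. The shift of the fraction difference with odor was called for 0%. At 2 log2 units the shares were 98.5% for odor pools, 96% and 95% for the odor comparisons and 90% for the shift.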

Additional observations from a re-analysis of the deposited data

Results flagged for a closer look

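Over 25 enzymes that were well measured, each of the 4 groups of 4 samples was searched for a sample lying far from the others, and 1 of 100 groups held one, where chance gives about 1 in 20. It was Aldh3b1 in odor GFP- cells: replicate 3 had a log2 level of 10.34, against 11.24, 11.09 and 11.12 in replicates 1, 2 and 4.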

How the results depend on the processing

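Median centring moved the median difference of all genes to 0.46 in odor and 0.45 in vehicle pools, against 0.11 in both as deposited, and by construction it adds one constant to every difference of a pool. It raised the called enzymes to 46 in odor pools (17 as deposited) and 51 in vehicle pools (17), and the calls of all genes as higher to 10682 (1552 as deposited) and 10604 (1728). The share of higher calls among all genes was 86.5% in both arms after centring and 56.4% and 58.3% after quantile normalization (2514 and 2751 genes), against 42.9% and 45.1%. Leaving out 1 pool gave 12 to 20 called enzymes in odor pools and 12 to 19 in vehicle pools, with 972 genes higher without odor replicate 1, and 1010 and 1014 without vehicle replicates 1 and 2. Without the pool as a block (no replicate block), 18 and 17 enzymes were called. Of all genes, 1325 were then higher and 1948 lower in odor pools, and 1443 and 2022 in vehicle pools. The 3 odor comparisons called 0 enzymes under every alternative run, among them the replicate number as a block (0 each), a fit that rests on calling the later of 2 vehicle pools labelled replicate 3 number 4. Numbers shared by odor and vehicle pools correlated by 0.114 to 0.242 in GFP+ and by 0.0664 to 0.332 in GFP- cells.

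Of the 14 enzymes lower in both arms, 10 kept both calls under every alternative that tested them, and Gstm1, Gstm7, Gstt2 and Sult2b1 did not. The matching share of all genes was not counted. Of 1055 differences of named enzymes under an alternative, 958 kept sign and call, 45 lost a call, 33 gained one and 19 changed sign, none of the last with a call as deposited. After centring the sign turned for Aldh3a2 (0.11 in odor, 0.30 in vehicle pools), Aldh3b1 (0.29, odor), Ces1d (0.0430, odor), Fmo2 (0.19, odor), Gsta4 (0.0029, odor), Gstm2 (0.13, odor) and Fmo1 (0.26, vehicle). After quantile normalization it turned for Ces1d (0.0342, odor), Gsta4 (0.0276, odor), Fmo1 (0.26, vehicle) and Sult1d1 (-0.0267, vehicle). Leaving out 1 pool each gave -0.147 to 0.0837 for Aldh3b1 and -0.308 to 0.0422 for Fmo2 in odor pools, and -0.129 to 0.00516 for Aldh3a2, -0.226 to 0.121 for Fmo1 and -0.0451 to 0.0879 for Sult1d1 in vehicle pools. Gstm5 and Gstp2 gained an odor call without vehicle replicate 1 (adjusted p = 0.015 and 0.0079, limma), through the spread shared by both arms. The vehicle call of Gstp2 was lost after quantile normalization (adjusted p = 0.076), and that of Gstt3 after centring, without odor replicate 4 and without any one vehicle pool (-0.66 to -0.38). Median differences of the aldehyde dehydrogenase, monooxygenase, alpha, mu and theta families were below 0 in odor pools as deposited and above 0 after centring. Genes below background give only bounds, which the arrays' signal limits.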
